A study of Homo sapiens with 4 samples.

Results

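The genes described here are 10 regulators of apoptosis from the BCL2 family, namely BCL2, BCL2L1, MCL1, BAX, BAK1, BID, BAD, BCL2L11, PMAIP1 and BBC3. They were taken by name from the 57815 rows of a deposited expression table, and each of the 10 symbols had 1 row. The table holds 4 RNA-seq libraries of MKN1 and AGS, human gastric cancer cell lines. Cells of each line were transfected, using Lipofectamine 2000, with a small interfering RNA against the homeobox transcription factor HOXB9 (siHOXB9, genotype label HOXB9 knockdown) or with a scrambled control (siScramble, genotype label WT). The groups are MKN1 siHOXB9, MKN1 siScramble, AGS siHOXB9 and AGS siScramble, with 1 library in each, so both lines and both siRNAs have 2 libraries and no group has a replicate. The labels name the purpose as finding HOXB9 target genes. They give neither the siRNA sequences nor the time after transfection, and the AGS and MKN1 cells are each a single line.

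The BCL2 family controls the step at which the mitochondrial outer membrane becomes permeable and cytochrome c is released. BAX and BAK1 are the effectors that form the pores. BCL2, BCL2L1 (BCL-XL) and MCL1 hold them in check. The BH3-only proteins BID, BAD, BCL2L11 (BIM), PMAIP1 (NOXA) and BBC3 (PUMA) carry stress signals to the family, by binding the anti-apoptotic proteins and, for some of them, the effectors. Much of the regulation of MCL1 lies in the turnover of its protein, which RNA does not show.

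The feature that binds these genes together is the BH3 motif, a short helix in which a leucine is followed, after a gap of several residues, by a small residue and an aspartate. The coding bases of this core were read from the principal transcript of each gene in GENCODE release 29 (GRCh38). They are shown because the motif takes part in the binding between family members. Each line gives 27 bases on the coding strand, 5′ to 3′, with the codons of the leucine, the small residue and the aspartate in capitals.
BCL2: CTCcgccaggccGGCGACgacttctcc
BCL2L1: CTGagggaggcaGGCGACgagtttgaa
MCL1: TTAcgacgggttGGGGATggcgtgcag
BAX: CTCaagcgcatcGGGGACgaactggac
BAK1: CTCgccatcatcGGGGACgacatcaac
BID: CTCgcccaggtcGGGGACagcatggac
BAD: CTCcggaggatgAGTGACgagtttgtg
BCL2L11: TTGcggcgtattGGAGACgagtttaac
PMAIP1: CTCaggagatttGGAGACaaactgaac
BBC3: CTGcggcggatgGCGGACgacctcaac

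The pattern of a leucine codon and, 4 codons later, a glycine, alanine or serine codon followed by aspartate occurred once in 9 of the 10 coding sequences. BID had 2 matches, of which the one with glycine is shown. The small residue is glycine in 8 members, serine in BAD and alanine in BBC3. Between members, 11 to 19 of the 27 bases were identical (median 15 over 45 pairs). The pairs BAX with PMAIP1, BAK1 with BID, and BCL2L11 with BBC3 shared 19. The core of BAX lies in exon 3 at chr19:48955787-48955813 on the forward strand, and that of BBC3 in exon 3 at chr19:47226582-47226608 on the reverse strand. The core of PMAIP1 lies in exon 2 at chr18:59902673-59902699 on the forward strand, and that of BCL2 in exon 2 at chr18:63318352-63318378 on the reverse strand. Those of BCL2L1 (chr20:31721925-31721951), MCL1 (chr1:150578868-150578894), BAK1 (chr6:33575390-33575416), BID (chr22:17739418-17739444) and BAD (chr11:64271625-64271651) lie on the reverse strand. That of BCL2L11 (chr2:111150103-111150129) lies on the forward strand.

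The libraries were estimated to hold 10620000 to 12980000 fragments, and 12537 to 12770 genes stood at 1 FPKM or more (FPKM, fragments scaled by transcript length and library size). HOXB9 itself was at 0.218 FPKM with siHOXB9 and 1.14 FPKM with siScramble in MKN1, and at 4.44 and 16.4 FPKM in AGS, so its transcript was lower with siHOXB9 in both lines. The epithelial keratins KRT8 and KRT18 were at 654 FPKM or more in all libraries. Other epithelial markers were low in MKN1, with EPCAM at 2.70 FPKM or less and KRT19 at 2.66 FPKM or less there, and EPCAM at 328 FPKM or more and KRT19 at 838 FPKM or more in AGS. Limma called 4 of the 6 epithelial markers lower in MKN1, namely EPCAM, KRT19, CLDN4 and CDH1, where 20.9% of all tested genes were. CDH1 was under 1 FPKM in both MKN1 libraries. It entered the test, which takes genes at 1 FPKM or more in at least 2 libraries, only through AGS. Among gastric and intestinal markers, CDH17 and CDX2 were at 74.8 FPKM or more in AGS and at 1.76 FPKM or less in MKN1. PTPRC, CD3E and ALB, which mark leukocytes, T cells and hepatocytes, were at 0.185 FPKM or less throughout. Of the 7 markers of other cell types with a row, COL1A1, a collagen gene of fibroblasts, stood higher, at 43.85 FPKM with siHOXB9 and 35.0 FPKM with siScramble in MKN1, and at 29.3 and 15.8 FPKM in AGS. PDGFRB reached 1.31 FPKM, and COL1A2, the partner of COL1A1 in collagen, was listed at 0 in all libraries. The part of these markers in the results was not tested.

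**Figure D1:**
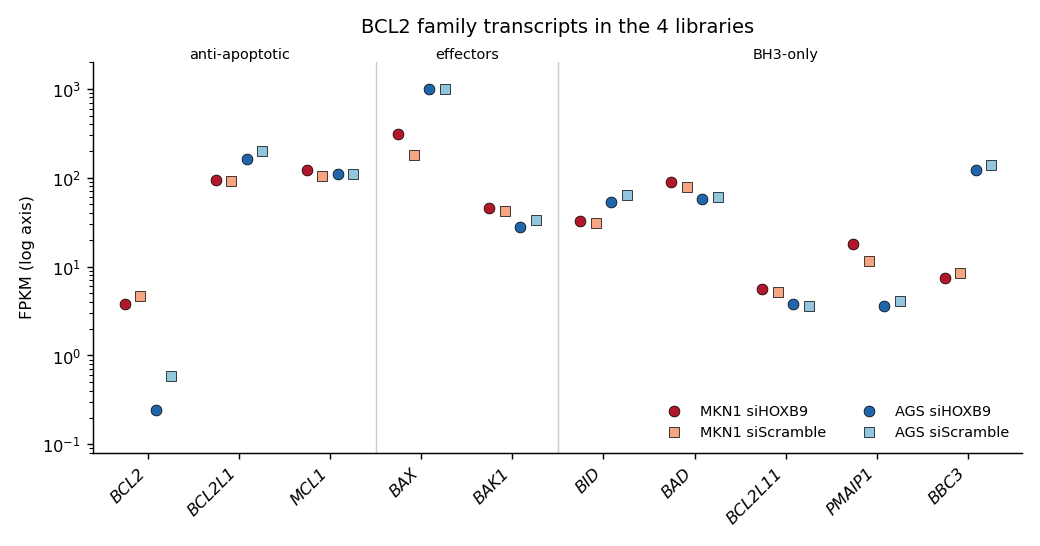
FPKM of the 10 BCL2 family genes (log axis) in the MKN1 siHOXB9, MKN1 siScramble, AGS siHOXB9 and AGS siScramble libraries, 1 point per library, ordered by class. BAX and BBC3 are higher in both AGS libraries, BCL2 and PMAIP1 are higher in both MKN1 libraries, and MCL1 lies between 106 and 123 FPKM in all 4.

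The levels of the members spanned a wide range, and their order differed between the lines, as the plot of FPKM by library shows. In MKN1 the order from high to low was BAX, MCL1, BCL2L1, BAD, BAK1, BID, PMAIP1, BBC3, BCL2L11 and BCL2, and no neighbours in it overlapped between the 2 libraries. In AGS it was BAX, BCL2L1, BBC3, MCL1, BAD, BID, BAK1, PMAIP1, BCL2L11 and BCL2. There BAD (58.1 to 60.2 FPKM) overlapped BID (54.0 to 63.4 FPKM), and PMAIP1 (3.60 to 4.08 FPKM) overlapped BCL2L11 (3.58 to 3.76 FPKM). BAX held the top place in both lines and BCL2 the bottom one. BAX ranked 426th and 740th among genes at 1 FPKM or more in MKN1 siHOXB9 and MKN1 siScramble, and 114th and 121st in AGS siHOXB9 and AGS siScramble.

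The first question was whether the knockdown of HOXB9 moved these transcripts. In MKN1 the effector BAX and the BH3-only gene PMAIP1 were higher with siHOXB9, by 0.79 and 0.57 on the log2(FPKM + 1) scale. MCL1 was higher there by 0.22 and BCL2 lower by 0.25, and the other members differed by less. In AGS neither BAX nor PMAIP1 was higher, and BCL2L1, BAK1 and BID were lower by 0.23 to 0.31 on that scale. Of measured genes in AGS, 37.4%, 46.3% and 50% had a change of larger size than these 3, in that order. By a size rule of 2-fold on the log2(FPKM + 1) scale, 0 of 10 members passed in MKN1, where 4.05% of the 13122 genes that reached 1 FPKM in a library of that line did. In AGS 0 of 9 measured members passed, against 3.89% of 13252 genes, and BCL2 stayed under 1 FPKM in both AGS libraries. With 1 library per group there is no test within a line. The intervals given below are 95% Clopper-Pearson intervals of the ratio from estimated fragments, and they cover counting error only. In bulk RNA, a shift in the make-up of the cells and a change of RNA per cell cannot be told apart.

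BAX, the pore-forming effector, was at 312 FPKM with siHOXB9 and 180.3 FPKM with siScramble in MKN1, and at 988 and 997 FPKM in AGS. Its level with siHOXB9 was thus 1.73 times that with siScramble in MKN1 (interval 1.64 to 1.82) and 0.991 times in AGS (0.968 to 1.01). On the log2(FPKM + 1) scale the changes were 0.79 and -0.01. In MKN1, 7.17% of measured genes had a change of larger size. BAX (ENSG00000087088.19) spans chr19:48954815-48961798 on the forward strand of GRCh38, has 13 annotated transcripts and shares no exon with another gene. The other effector, BAK1, was at 45.4 FPKM with siHOXB9 and 42.7 FPKM with siScramble in MKN1, and at 28.2 and 33.8 FPKM in AGS. Its log2 changes were 0.09 and -0.25.

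PMAIP1, which binds MCL1 with preference, was at 17.7 FPKM with siHOXB9 and 11.7 FPKM with siScramble in MKN1, a ratio of 1.52 (interval 1.28 to 1.81) and a log2 change of 0.57. In AGS it was at 3.60 and 4.08 FPKM, a ratio of 0.883 (0.644 to 1.22) and a log2 change of -0.14. The AGS values rest on an estimated 76.1 and 89.4 fragments, and their difference lies within counting error. PMAIP1 (ENSG00000141682.11) spans chr18:59899948-59904306 on the forward strand. MCL1 itself was at 123 FPKM with siHOXB9 and 106 FPKM with siScramble in MKN1 (log2 0.22), and at 109 and 109.95 FPKM in AGS (log2 -0.02). In MKN1 there were thus 6.94 MCL1 per PMAIP1 FPKM with siHOXB9 and 9.06 with siScramble, and in AGS 30.1 and 26.9.

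The remaining BH3-only genes differed less. BBC3, which binds all the anti-apoptotic members, was at 7.47 FPKM with siHOXB9 and 8.56 FPKM with siScramble in MKN1, and at 121 and 137 FPKM in AGS. Its log2 changes were -0.18 in both lines, and the interval of its ratio took in 1 in MKN1 (0.683 to 1.11) and not in AGS (0.835 to 0.931). BID, the protein that links caspase 8 to mitochondria, was at 32.2 and 31.2 FPKM in MKN1, and at 54.0 and 63.4 FPKM in AGS, with siHOXB9 and siScramble. BAD, whose activity is set by phosphorylation, was at 89.4 FPKM with siHOXB9 and 78.0 FPKM with siScramble in MKN1, and at 58.1 and 60.2 FPKM in AGS. BCL2L11, which can engage both the anti-apoptotic proteins and the effectors, was at 5.53 and 5.16 FPKM in MKN1 and at 3.76 and 3.58 FPKM in AGS with siHOXB9 and siScramble. The sizes of these 3 genes' log2 changes were at most 0.23.

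Among the anti-apoptotic genes, BCL2L1 was at 95.3 FPKM with siHOXB9 and 91.6 FPKM with siScramble in MKN1 (log2 0.06). In AGS it was at 163 and 202 FPKM, a ratio of 0.808 (interval 0.778 to 0.839) and a log2 change of -0.31. In AGS 37.4% of measured genes had a change of larger size, and the change of BCL2L1 was -0.22 after median centring and -0.20 after quantile normalization. The table gives 1 value per gene, so the long, anti-apoptotic form of BCL2L1 and its short form cannot be told apart, and the same holds for the forms of MCL1. BCL2 was at 3.77 FPKM with siHOXB9 and 4.67 FPKM with siScramble in MKN1 (log2 -0.25). In AGS it was at 0.246 and 0.595 FPKM, which is an estimated 22.1 and 55.6 fragments, a ratio of 0.413 (interval 0.237 to 0.679). BCL2 (ENSG00000171791.12) spans chr18:63123346-63320128 on the reverse strand. It was lower with siHOXB9 in both lines, from few fragments in AGS.

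**Figure D2:**
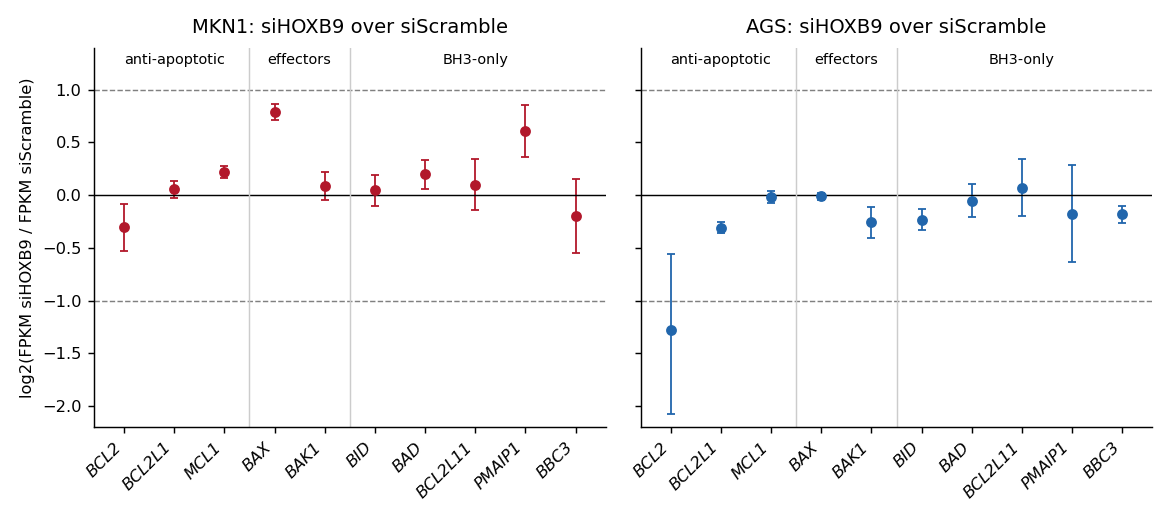
log2 ratio of FPKM with siHOXB9 over siScramble for the 10 genes in MKN1 (left) and AGS (right), with 95% Clopper-Pearson intervals from estimated fragments (counting error only) and dashed lines at 2-fold. In MKN1 the points for BAX (0.79) and PMAIP1 (0.61) lie highest. In AGS the BCL2 point (-1.28) lies lowest with the widest interval, from levels under 1 FPKM.

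Counted by sign alone, 8 of 10 members were above 0 in MKN1, where 63.1% of all measured genes were, and 8 of 9 were below 0 in AGS, where 57.0% of all measured genes were. The median change of the members was 0.09 in MKN1 and -0.14 in AGS, and that of all genes 0.09 and -0.06. These directions depend on how the libraries are scaled. After each library was centred on its median gene, 50.6% of genes were above 0 in MKN1 and 46.8% were below 0 in AGS. Under the other scalings and pseudocount tried, the signs of BCL2L1, BAK1, BID and BCL2L11 in MKN1 and of MCL1, BAX and BAD in AGS turned in at least 1. With median centring all of these signs turned, so the member counts by sign above hold for the values as deposited only. Those of BAX, PMAIP1, MCL1, BAD, BCL2 and BBC3 in MKN1 kept their direction, with BAX between 0.69 and 0.79 and PMAIP1 between 0.46 and 0.60.

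Over both lines, limma, fitted to log2(FPKM + 1) with the line as a block, called none of the 10 members after Benjamini-Hochberg adjustment over 13758 genes. Their adjusted p-values ran from 0.794 for BAX to 0.983 for BCL2L11, and 0 of 10 had an unadjusted p under 0.05. Over all genes 980 had one, and 1 gene (0.00727%) was called. That gene, RP11-192N10.2, was listed at 0 in both siHOXB9 libraries and at 6.52 FPKM in MKN1 siScramble and 10.6 FPKM in AGS siScramble. It was named after its values were seen. The estimate for BAX was 0.39 (SE 0.22, 1 library per group in 2 lines), for PMAIP1 0.21 (SE 0.24) and for BCL2 -0.30 (SE 0.21). The lines are the only repeat of the knockdown, so a gene's own spread is how far both lines differ in their change, with 1 residual degree of freedom. Limma moderates this spread toward a trend fitted over all tested genes, and the p-values rest on the moderated spread. For BBC3 and BAX the changes differed between the lines by 0.0055 and 0.80, and the SEs were 0.17 and 0.22. HOXB9, the knockdown target, was not called in this fit either (limma estimate -1.25, SE 0.27, adjusted p = 0.355). A p that misses the threshold here does not show that a transcript was unaffected.

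The changes of BAX and PMAIP1 differed between the lines by 0.80 and 0.71 on the log2 scale, MKN1 minus AGS. With 1 library per group in each line this difference leaves no residual degree of freedom and was not tested. BAX stood 2.46 lower in MKN1 than in AGS on the same scale with siScramble, and 1.66 lower with siHOXB9.

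Since the study looked for HOXB9 targets, the 250 bases before each RefSeq transcript start (GRCh38.p14) were read for the members, with 15 windows for 9 of the 10 genes, all but MCL1. The letters ATAAA or TTTAT, on either strand the same pair, are the core of sites that posterior HOX proteins can bind. They were found in 5 of 15 windows and in 32.7% of all 35116 windows of that length. BAX and PMAIP1 are shown, up to the first annotated base of the gene in GENCODE, since they had the highest ratios in MKN1. Capitals mark ATAAA, which occurs once, in BAX, 227 bases before the RefSeq start. The BAX stretch is chr19:48954625-48954814 and that of PMAIP1 chr18:59899746-59899947, both on the forward strand.
BAX: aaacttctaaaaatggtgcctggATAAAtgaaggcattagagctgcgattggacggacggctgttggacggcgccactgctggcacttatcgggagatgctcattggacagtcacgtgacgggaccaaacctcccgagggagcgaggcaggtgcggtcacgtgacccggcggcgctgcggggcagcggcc
PMAIP1: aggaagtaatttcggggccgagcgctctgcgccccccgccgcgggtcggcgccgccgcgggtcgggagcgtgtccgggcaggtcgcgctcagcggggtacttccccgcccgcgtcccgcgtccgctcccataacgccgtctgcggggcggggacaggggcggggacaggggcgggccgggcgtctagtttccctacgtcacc

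The PMAIP1 stretch has 76.2% G and C, and that of BAX 61.1%. A match of letters is a description of these windows, not of binding, and a window without one says nothing about sites elsewhere.

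The second comparison set MKN1 against AGS, each with its 2 libraries. BBC3 and BAX were lower in MKN1, BCL2 and PMAIP1 were higher there, and MCL1 differed least. By limma, 8 of 10 members had an adjusted p under 0.05 whatever the size, where 59.1% of all genes did. Without the filter on low values 2 of 10 did, BBC3 and BCL2, where 13.0% of 24308 genes did. By limma with an adjusted p under 0.05 and a 2-fold size, 4 of 10 members were called, where 37.1% of 13758 genes were, so the share of members called was close to that of all genes. In MKN1, 2 members were lower, where 20.9% of all genes were called lower, and 2 were higher, where 16.2% were called higher. Of these, BCL2 passed the filter on low values only through MKN1. The siRNAs stand in for replicates in this comparison, and nothing says that the cultures were independent. Each side is 1 line. With the siRNA in the fit, a gene's own spread is how far its difference between the lines changes with the siRNA. It has 1 residual degree of freedom, and limma moderates it toward a trend over all tested genes. The p-values rest on this moderated spread. The SDs of FPKM given below are between the siHOXB9 and siScramble libraries of a line and are not that spread.

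BBC3 averaged 8.02 ± 0.773 FPKM in MKN1 and 129 ± 11.5 FPKM in AGS (SD, n = 2 libraries each). The limma difference was -3.85 on the log2 scale (SE 0.17, adjusted p = 3.65e-06), and AGS stood 16.2 times higher with siHOXB9 and 16.05 times higher with siScramble. BBC3 made up 4.90% and 6.36% of the summed FPKM of the BH3-only genes in MKN1 siHOXB9 and MKN1 siScramble, and 50.4% and 51.1% in AGS siHOXB9 and AGS siScramble. In the values as deposited, it is also the member whose difference between the lines changed least with the siRNA, by 0.0055. After each library was centred on its median gene, that was -0.17 for BBC3. It was then smaller in size for other members, such as MCL1 at 0.06. The exons of BBC3 overlap those of the microRNA gene MIR3191, listed at 0 in all libraries.

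BAX averaged 246 ± 93.1 FPKM in MKN1 and 993 ± 6.29 FPKM in AGS (SD, n = 2 libraries each), a limma difference of -2.06 (SE 0.22, adjusted p = 0.000224). AGS stood 3.17 times higher with siHOXB9 and 5.53 times higher with siScramble. PMAIP1 went the other way, with 14.7 ± 4.30 FPKM in MKN1 and 3.84 ± 0.337 FPKM in AGS (SD, n = 2 libraries each), a limma difference of 1.67 (SE 0.24, adjusted p = 0.000943). BAX and PMAIP1 lost the call when genes with low values were not filtered, with adjusted p-values of 0.0649 and 0.0739 by limma over 24308 genes.

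BCL2 averaged 4.22 ± 0.632 FPKM in MKN1 and 0.420 ± 0.247 FPKM in AGS (SD, n = 2 libraries each), a limma difference of 1.88 (SE 0.21, adjusted p = 0.000276). MKN1 stood 15.4 times higher with siHOXB9 and 7.85 times higher with siScramble. Under 1 FPKM in both AGS libraries, BCL2 passed the filter on low values only through MKN1, which fixed the direction of its difference. Without the filter its limma adjusted p was 0.0481. BCL2L1 was lower in MKN1, at 93.5 ± 2.63 FPKM against 182 ± 27.4 FPKM in AGS (SD, n = 2 libraries each). Its limma difference of -0.95 (adjusted p = 0.00295) stayed under the 2-fold size and reached it, at -1.01, with quantile normalization. MCL1, at 114 ± 12.4 FPKM in MKN1 and 109 ± 0.958 FPKM in AGS (SD, n = 2 libraries each), had a difference of 0.06 (SE 0.17) and an adjusted p of 0.772 by limma.

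**Figure D3:**
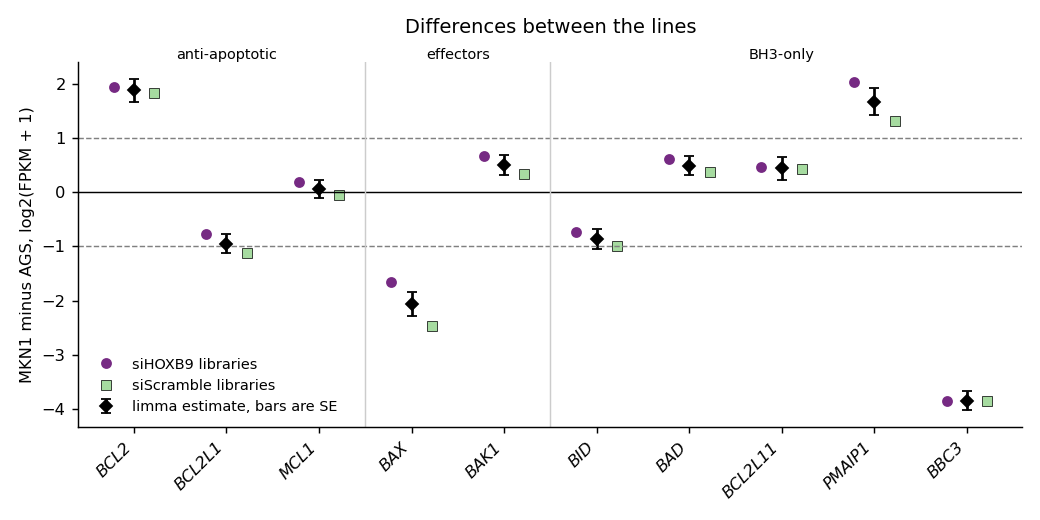
Difference between MKN1 and AGS on the log2(FPKM + 1) scale for the 10 genes, for the siHOXB9 libraries (circles), the limma estimate with its SE (diamonds) and the siScramble libraries (squares). Dashed lines mark 2-fold. BBC3 (-3.85) and BAX (-2.06) lie lowest, BCL2 (1.88) and PMAIP1 (1.67) highest, and MCL1 (0.06) near 0.

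The other members differed by less than 2-fold. BID was lower in MKN1 (limma log2 -0.86, adjusted p = 0.00479). Without the filter on low values the limma adjusted p was 0.0635 for BID, 0.0703 for BCL2L1, 0.110 for BAD and 0.140 for BAK1. BAD (0.49, adjusted p = 0.0419) and BAK1 (0.50, adjusted p = 0.0499) were higher there by limma, both close to the threshold. BCL2L11 had a difference of 0.44 and an adjusted p of 0.112 by limma. Centring each library on its median gene moved the median difference of all genes to 0.08, against -0.10 as deposited. After it BBC3 stood at -3.67, BAX at -1.88, BCL2 at 2.07 and PMAIP1 at 1.85.

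Because FPKM is scaled by length, levels of different members can be set side by side within a library. The effectors summed to 357 FPKM in MKN1 siHOXB9, 223 in MKN1 siScramble, 1017 in AGS siHOXB9 and 1031 in AGS siScramble. The anti-apoptotic genes summed to 222, 202, 272 and 312 FPKM in the same order, and the BH3-only genes to 152, 135, 241 and 269 FPKM. There were thus 1.61 effector FPKM per anti-apoptotic FPKM in MKN1 siHOXB9 and 1.10 in MKN1 siScramble, and 3.74 in AGS siHOXB9 and 3.30 in AGS siScramble. The ratio was higher with siHOXB9 in both lines. With siHOXB9 both sums were higher in MKN1 and both were lower in AGS. BAX alone made up 42.6% of the summed FPKM of all 10 members in MKN1 siHOXB9 and 32.2% in MKN1 siScramble, and 64.6% and 61.9% in the AGS libraries with siHOXB9 and siScramble. These are ratios of transcript levels, with no replicate, and say nothing of protein.

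**Figure D4:**
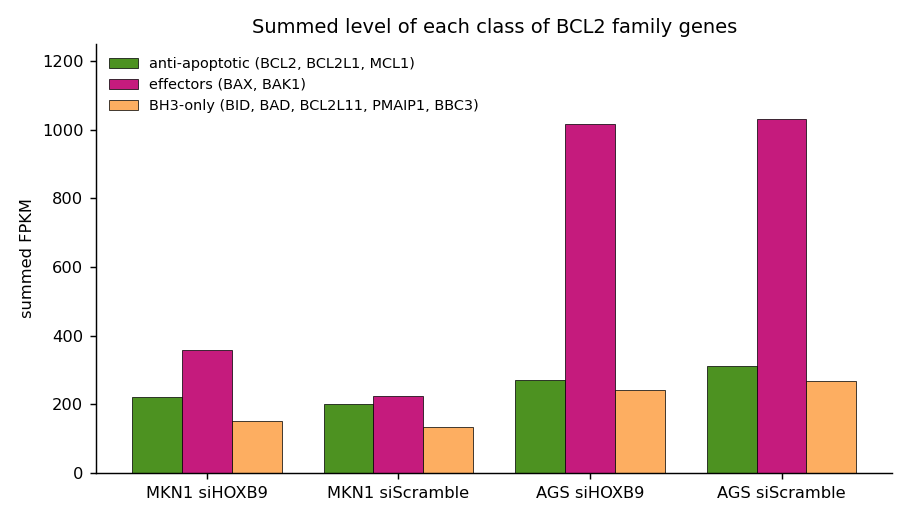
Summed FPKM (linear axis from 0) of the anti-apoptotic, effector and BH3-only genes in each of the 4 libraries. The effector bar is the tallest in all 4, at 357 FPKM in MKN1 siHOXB9, 223 in MKN1 siScramble, 1017 in AGS siHOXB9 and 1031 in AGS siScramble.

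Exons of 6 members overlap those of another annotated gene, and a strand-keeping library step is not mentioned in the labels. BAD overlaps GPR137 on the opposite strand, which was at 35.7 to 41.4 FPKM in the 4 libraries, so reads of these genes may not have been separable. ADAMTSL4-AS1 at MCL1 was listed at 0 in all libraries, and GGNBP1 at BAK1 was at 0.0187 FPKM or less. BCL2L1 overlaps ABALON and BCL2L11 overlaps MIR4435-2HG, whose levels were not analysed here.

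Around the 10 members, 7 lists of the apoptosis pathway held 88 genes with a row. In MKN1, 0 of 72 measured genes passed the 2-fold size rule with siHOXB9, where 4.05% of all measured genes did. In AGS 2 of 79 (2.53%) did, where 3.89% of all measured genes did. These were BIRC5 (survivin), an inhibitor of apoptosis that is made in mitosis, at 19.1 FPKM with siHOXB9 and 50.7 FPKM with siScramble in AGS, and BTRC, a ubiquitin ligase subunit, at 13.6 and 5.19 FPKM. In MKN1, BIRC5 was at 79.4 and 72.55 FPKM and BTRC at 8.58 and 7.30 FPKM. No gene of the 7 lists was called over both lines by limma, with adjusted p-values of 0.616 or more.

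Of all measured genes, 63.1% were above 0 in MKN1 (median log2 change 0.09) and 43.0% in AGS (median -0.06). Among the 14 other BCL2 family genes, 6 of 7 measured were above 0 in MKN1 (median log2 change 0.37) and 5 of 10 in AGS (median 0.01). BNIP3L, a mitophagy receptor, was at 22.7 FPKM with siHOXB9 and 12.0 FPKM with siScramble in MKN1, and at 23.4 and 22.9 FPKM in AGS. BMF, a BH3-only gene, was at 0.983 and 0.320 FPKM in MKN1, under the filter of 1 FPKM there, and at 5.81 and 8.89 FPKM in AGS. Of 13 apoptosome and caspase genes, 10 were above 0 in MKN1 (median 0.11) and 6 in AGS (median -0.11). DIABLO, which relieves caspases of their inhibitors, was at 58.0 FPKM with siHOXB9 and 37.9 FPKM with siScramble in MKN1, and at 43.7 and 58.3 FPKM in AGS.

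Of 6 measured inhibitors of apoptosis, 4 were above 0 in MKN1 (median 0.07) and 5 in AGS (median 0.39), where 63.1% and 43.0% of all measured genes were. BIRC3, an NF-kappaB target, was at 10.8 FPKM with siHOXB9 and 5.76 FPKM with siScramble in MKN1, and at 2.86 and 1.64 FPKM in AGS. In the death receptor list the medians were 0.01 in MKN1 and -0.05 in AGS. FAS, a death receptor, was lower with siHOXB9 in both lines, at 2.06 FPKM against 3.44 FPKM in MKN1 and 3.83 FPKM against 6.01 FPKM in AGS, with a log2 change of -0.54 in each. TNFRSF10C, a decoy receptor, was at 0.997 and 0.534 FPKM in MKN1, also under the filter, and at 1.80 and 1.20 FPKM in AGS with siHOXB9 and siScramble.

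Outer membrane partners had medians of 0.15 in MKN1 and -0.13 in AGS, and DNM1L, the fission GTPase, was at 72.6 and 60.9 FPKM in MKN1 and at 54.7 and 42.8 FPKM in AGS with siHOXB9 and siScramble. In that list BNIP1 was at 16.4 FPKM with siHOXB9 and 14.5 FPKM with siScramble in MKN1, and at 6.23 and 8.56 FPKM in AGS. The turnover list had medians of 0.13 in MKN1 and -0.01 in AGS. USP9X, which removes ubiquitin from MCL1, was at 10.9 FPKM with siHOXB9 and 9.85 FPKM with siScramble in MKN1, and at 18.7 and 12.4 FPKM in AGS. The transcription factor list had medians of 0.05 in MKN1 and -0.08 in AGS. There E2F1, a regulator of S phase entry, was at 43.7 and 34.9 FPKM in MKN1 and at 14.1 and 22.9 FPKM in AGS, and TP73 stayed under 2 FPKM in all libraries.

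Between the lines, limma called 26 of the 79 tested genes of these lists (32.9%), 8 higher and 18 lower in MKN1, a share below the 37.1% of all genes. Of the 11 other BCL2 family genes tested, 6 were called lower in MKN1, where 20.9% of all genes were. These were BCL2L2, BIK, BMF, BOK, BCL2L14 and BCL2L15. BNIP3 was called higher, where 16.2% of all genes were. BIK, BMF, BCL2L14 and BCL2L15 stayed under 1 FPKM in both MKN1 libraries, and BNIP3 in both AGS libraries. Also under 1 FPKM in both MKN1 libraries, and called lower there, were CASP10 of the death receptor list and EGR1 of the transcription factor list. All these genes are among those called in the 7 lists. They passed the filter on low values only through the other line, so the filter fixed the direction of their difference. BIK, a BH3-only gene, was at 0.953 and 0.879 FPKM in MKN1 and at 13.4 and 15.1 FPKM in AGS with siHOXB9 and siScramble (limma log2 -2.99, SE 0.22, adjusted p = 2.96e-05). BNIP3, an outer membrane mitophagy receptor, was at 31.7 and 27.7 FPKM in MKN1 and at 0.301 and 0.114 FPKM in AGS (limma log2 4.67, SE 0.21, adjusted p = 3.65e-06). BCL2L2 (BCL-W), an anti-apoptotic relative, was at 6.45 and 4.28 FPKM in MKN1 and at 24.3 and 26.6 FPKM in AGS (limma log2 -2.08, adjusted p = 0.00024). CASP6, a caspase, was also lower in MKN1 by limma, with a difference of -2.16. BIK, BNIP3, BCL2L2, CASP6, CASP10 and EGR1 were named after their values were seen.

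The member with the largest change shared in sign by both lines, by the smaller of the 2 sizes, was BCL2 (0.25). Out of 9608 protein-coding genes that reached 5 FPKM in any library, those nearest to its pattern over the 4 libraries were POLR1E, RELT, UNG, SLC25A12 and NUP155, at Euclidean distances of 0.08 to 0.16 of centred log2(FPKM + 1) values. Since they were chosen for this likeness, their directions are those of BCL2, whose AGS values lie under 1 FPKM. UNG, for example, was at 64.3 and 74.1 FPKM in MKN1 and at 16.3 and 22.5 FPKM in AGS with siHOXB9 and siScramble.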

How the data were processed

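RNA of 4 libraries was sequenced after poly-T bead purification, heat fragmentation and random priming, per the labels' protocols. The authors deposited 1 table of FPKM values by gene symbol; builds GRCh38 and hg38 are named per the submitters' processing notes, and aligner, counter and annotation were not given in the sources used here. Fragment numbers were estimated from low values of single-transcript genes, where 64.1% to 67.5% lay within 0.05 of a whole fragment after lengths were shortened by 260 bases, and use each gene's longest GENCODE 29 transcript.

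Changes within a line are log2 differences with 1 FPKM added, among genes at 1 FPKM or more in either library. Limma 3.58.1 (R 4.3.3) was fitted to log2(FPKM + 1) with line and siRNA, an intensity trend and Benjamini-Hochberg adjustment, among 13758 genes at 1 FPKM or more in at least 2 libraries, and tested on simulated data. Libraries were paired by cell line, which the labels give. The genes named are the 10 members and, from each list, those past 2-fold in a line or else the 2 with the largest changes; some genes that this rule names are not reported here. Members and lists were chosen with earlier results of these data known. The alternatives were another pseudocount, scaling, filter, size rule, variance option or design. PECAM1 was not analysed here.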

Additional observations from a re-analysis of the deposited data

Results flagged for a closer look

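For 7 of the 10 members the single siHOXB9 and siScramble pair of each line pointed in opposite directions, higher in MKN1 and lower in AGS. Of all measured genes, 63.1% were above 0 in MKN1 and 57.0% were below 0 in AGS. The share of all genes with opposite signs was not computed. The number of members with opposite signs was 2 with rescaled totals, 2 with median centring and 1 with quantile normalization. The change in MKN1 minus that in AGS, on the log2(FPKM + 1) scale, was 0.80 for BAX, 0.71 for PMAIP1, 0.36 for BCL2L1, 0.34 for BAK1, 0.27 for BID, 0.25 for BAD and 0.24 for MCL1. After each library was centred on its median gene the differences were 0.63, 0.53, 0.19, 0.16, 0.10, 0.07 and 0.06 in the same order. PMAIP1 was then the only one of the 7 with opposite signs, and BCL2L11, which is not among the 7, had them too. These differences were not tested, since 1 library per group leaves no residual degree of freedom. The median change of all genes was 0.09 in MKN1 and -0.06 in AGS, a difference in the same direction whose part in these values was not tested. The signs of BCL2L1, BAK1 and BID in MKN1 and of MCL1, BAX and BAD in AGS turned under at least 1 other scaling.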

How the results depend on the processing

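No member was called over both lines by limma under any alternative, and no member call reversed. The number of genes past the size rule was 531 in MKN1 and 516 in AGS. It was 1025 and 1037 with a pseudocount of 0.1 FPKM, 257 and 256 with a filter of 5 FPKM, 139 and 134 among protein-coding genes that have 1 row and share no exon, and 1752 and 1856 with a 1.5-fold rule. Median centring moved the share of these genes that was higher to 40.3% in MKN1 and 54.9% in AGS, against 52.0% and 43.2% as deposited. BCL2 in AGS, under 1 FPKM, reached -1.01 with that pseudocount. Over both lines 1 gene was called. None was with the pseudocount of 0.1 FPKM (834 at an unadjusted p under 0.05), rescaled totals (1075), median centring (1164), quantile normalization (1077), no filter (879), genes without shared exons (410) or no replicate block (28), so that count was 0 without the pairing by line. It was 8 with a filter of 5 FPKM and 7 with the robust option. Between the lines 5109 genes were called, 2750 with no filter and 2341 among genes without shared exons. Of 93 member values between the lines under an alternative, 90 kept their side of the threshold, 2 lost the call and 1 gained it. With geometric means in place of sums, effector over anti-apoptotic ratios were 3.36 in MKN1 siHOXB9, 2.46 in MKN1 siScramble, 10.2 in AGS siHOXB9 and 7.77 in AGS siScramble, and BH3-only over anti-apoptotic ratios 0.520, 0.466, 1.35 and 1.01 in that order, against 0.685, 0.666, 0.885 and 0.861 from sums. Geometric means weigh the genes of a class alike. In the anti-apoptotic class this takes in BCL2, at 0.246 and 0.595 FPKM in AGS with siHOXB9 and siScramble, under the filter of 1 FPKM. The cause of the shift was not tested. Among the 10 members depth limits BCL2 in AGS most, at 22.1 and 55.6 estimated fragments with siHOXB9 and siScramble. HOXB9 and BIK in MKN1 and BNIP3 in AGS rest on fewer, at 4.16 to 30.5.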
